A study of Mus musculus with 12 samples.

Results

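The Rab GTPase genes other than Rab3 were taken from the table of read counts on coding sequence (CDS) by symbol, as every symbol made of Rab, a number and at most 1 letter and 1 further digit, without Rab3a, Rab3b, Rab3c and Rab3d. The rule found 54 of 20504 genes and used no measured value, and all 54 were also in the table of counts on exons. Rab proteins are small GTPases that mark the membranes of the secretory and endocytic pathways. A guanine nucleotide exchange factor (GEF) loads a Rab with GTP, the active Rab recruits effectors that move, tether or fuse the vesicle, and a GTPase-activating protein (GAP) ends the cycle. Rabs are prenylated at their C terminus, and a GDP dissociation inhibitor (GDI) carries them through the cytosol. In neurons they sort membrane between the soma, dendrites, axon and synapse.

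The 12 libraries were made from brain tissue of 6 adult mice of the Camk2a-RiboTag genotype, with 2 mice a group. All 6 mice expressed an HA-tagged ribosomal protein, Rpl22, in cells that had seen Cre under the Camk2a promoter, which is active chiefly in excitatory forebrain neurons. Mice A and B carry the label untreated, and in the methods the mice compared with the drug received vehicle by gavage. The ATP-competitive mTOR inhibitor AZD-8055 was given to mice C and D by oral gavage, at 100 mg/kg and for 1 h. Each of these 4 mice gave a poly(A)-selected RNA-Seq library and a ribosome footprint library from the whole lysate of a frontal lobe. Mice E and F (labelled untreated) each gave an RNA-Seq library of the homogenate (input) and of the HA immunoprecipitate (IP).

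Footprint libraries held 3503873 to 9259938 counts on CDS, and the RNA-Seq libraries of mice A to D held 9395385 to 10649939. The input and IP libraries held 19681269 to 27878212 counts on exons. The 54 Rab genes took 0.429% to 0.472% of the CDS counts in footprint libraries and 0.263% to 0.293% in the 8 RNA-Seq libraries. In the IP libraries the summed normalised counts of 10 excitatory markers were 269307 and 296543, against 135343 and 149537 in input, while those of 10 astrocyte markers were 18098 and 20582, against 103930 and 106686. Of the excitatory markers 6 were called higher in the IP, 3 of them over 2-fold, and Cux2, a gene of upper cortical layers, was called lower (−0.54). Glial markers were lower in the IP but were still counted there.

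Genes entered a test when their counts averaged 37 or more over its libraries. Of the 54 Rabs, 41 passed for the translation efficiency (TE) and 45 for the IP. The 13 that did not pass for TE were Rab7l1, Rab17, Rab19, Rab20, Rab25, Rab27a, Rab32, Rab37, Rab38, Rab39, Rab42, Rab43 and Rab44, with at most 55 CDS counts in any library of mice A to D. Of those, Rab7l1, Rab27a, Rab37 and Rab43 passed for the IP on exons. Rab17, Rab19 and Rab25 had at most 4 CDS counts in any of those 8 libraries, and their difference between groups was not detectable at this depth.

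TE was the ratio of footprint counts to RNA-Seq counts on the CDS of a gene, and the comparison asked which Rab messages carried more or fewer footprints per RNA count than the typical gene. In vehicle-treated mice most Rabs lay above the typical gene. With edgeR's quasi-likelihood test at an adjusted p below 0.05, 26 of 41 Rabs (63.4%) had a higher TE and 8 (19.5%) a lower one, against 36.5% higher and 37.3% lower among all 11797 genes tested. With a fold change over 2 as well, 18 Rabs were higher (43.9%, all genes 13.2%) and 4 lower (9.76%, all genes 17.6%). Among the 4 lower, Rab34 entered the test only through its RNA counts, as its footprint counts averaged under 37. The fitted median log2 TE was 0.82 for the Rabs and −0.01 for all genes. Taken per mouse with size factors, the median was 0.83 (mouse A) and 0.81 (mouse B). The log2 TE of the 2 mice differed by less than 0.5 for 37 of the 39 Rabs with at least 75 counts summed over both mice in each kind of library.

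**Figure D1:**
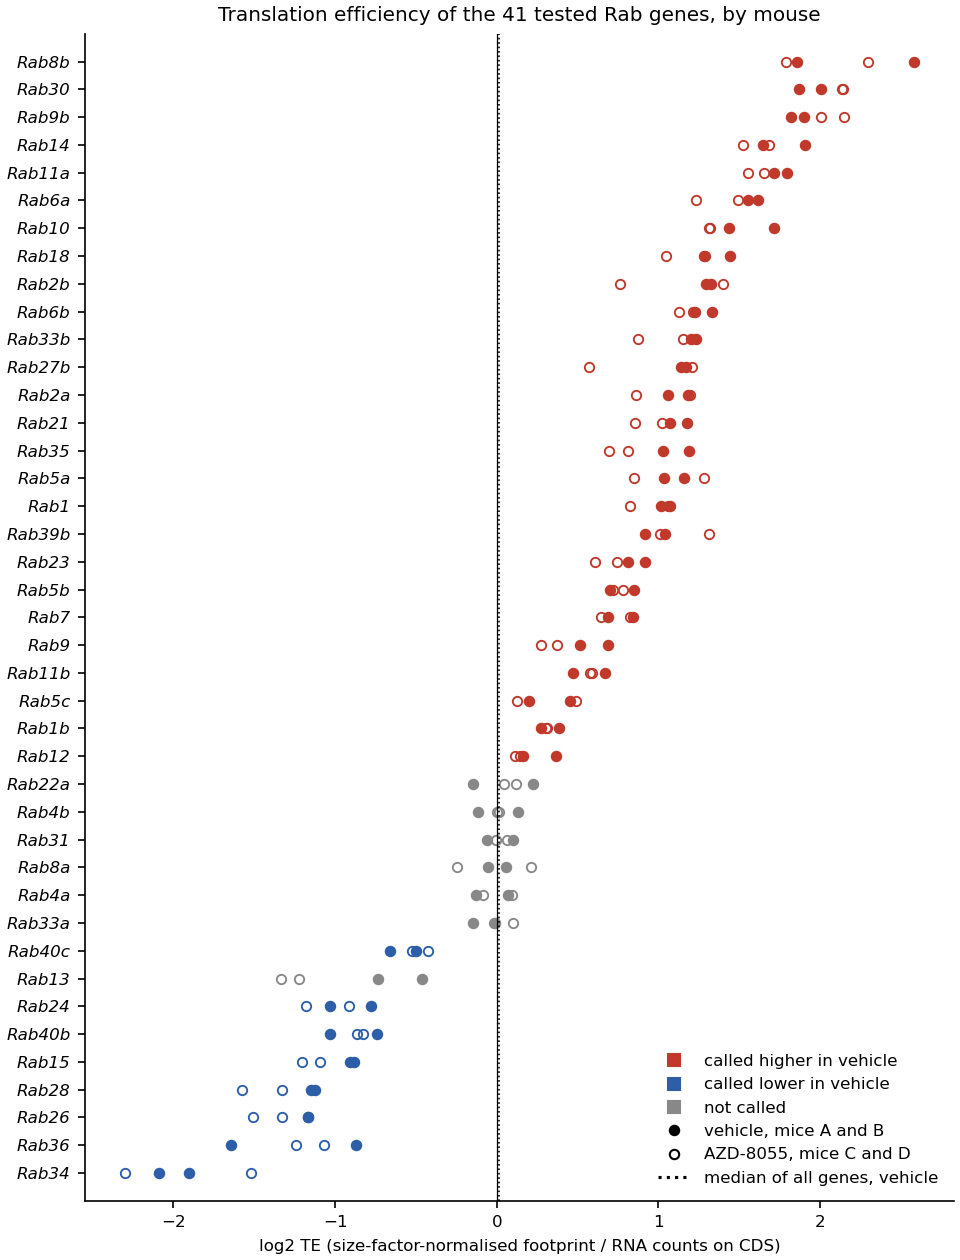
Log2 TE of the 41 tested Rab genes (rows, ordered by the fitted value in vehicle) in each mouse, with filled points for vehicle mice A and B and open points for AZD-8055 mice C and D. The vehicle points of the 26 genes called higher all lie above 0 and those of the 8 called lower all lie below 0, and Rab8b and Rab36 have the widest gap between mice A and B.

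Counting the RNA on exons changed this picture for part of the family. Rab messages had many exon counts outside the CDS: in the input of mice E and F the median share of exon counts on CDS was 38.4% for the 41 Rabs and 67.0% for 11772 genes. Across the 41 Rabs, TE in mice A and B fell with this share (Spearman's rho = −0.57, Pearson's r = −0.51, genes as points, which are not independent replicates). Across all genes rho was −0.38 and r was −0.06. The share comes from other mice than the TE, but the annotation and the base composition of each gene are common to both. When exon counts replaced CDS counts for the RNA-Seq libraries only, a choice made after seeing the data, 15 of 44 Rabs were called higher (34.1%, all genes 36.1%) and 21 lower (47.7%, all genes 38.2%), and the median log2 ratio was −0.21 against −0.02 for all genes. That ratio sets footprints on CDS against RNA on the whole transcript, so a gene with long untranslated exons falls by construction. With either count 13 Rabs were called higher (Rab1, Rab2a, Rab5a, Rab5c, Rab6a, Rab7, Rab9, Rab11a, Rab14, Rab18, Rab21, Rab30 and Rab35), and all 8 called lower on CDS were also called lower. Rab7 had equal counts in both tables, so its move from 0.82 to 1.64 came from the scaling alone and was no second measurement. The other 13 of the 26 called higher were called lower (9) or not called (4) on exons. The part of uneven RNA-Seq coverage in these values was not tested.

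**Figure D2:**
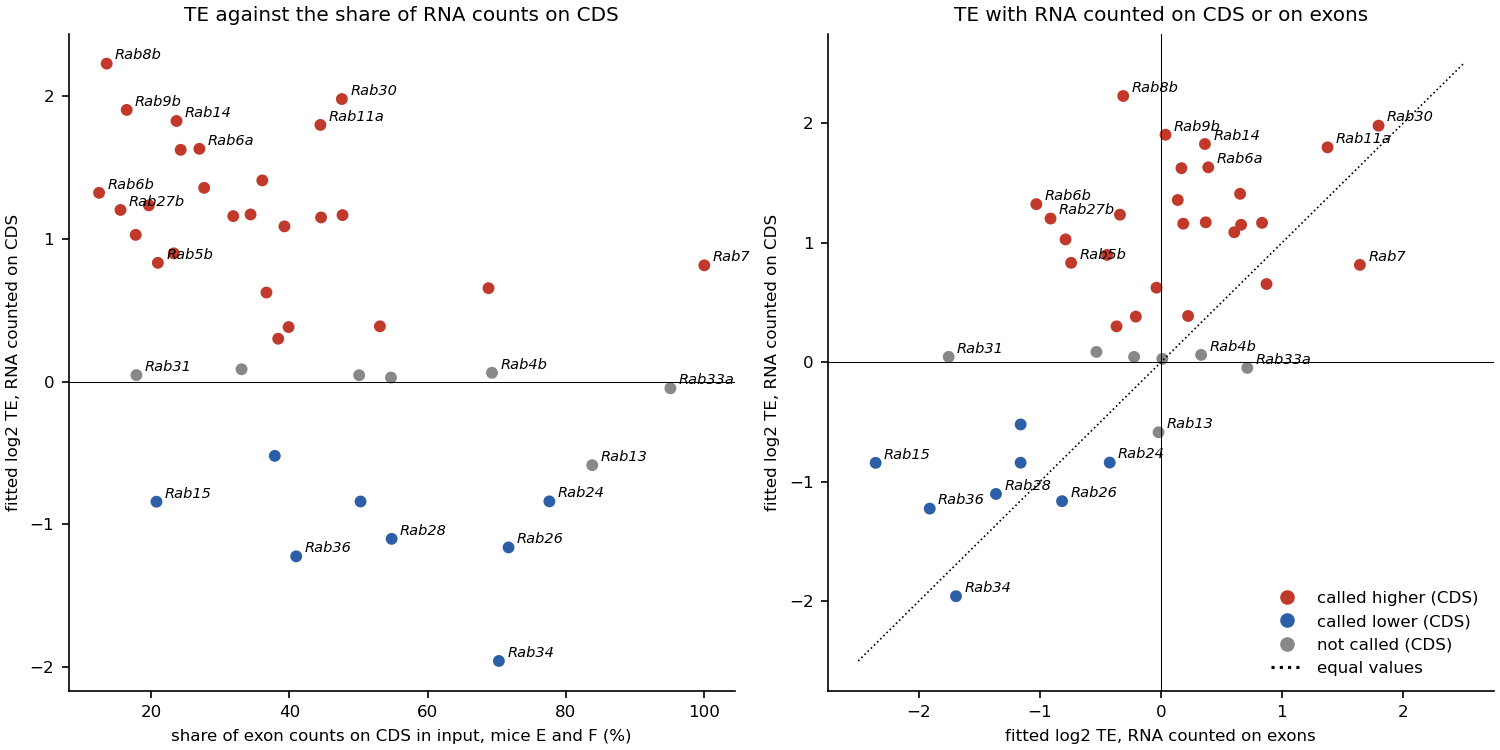
Fitted log2 TE of the 41 Rabs in vehicle (vertical axis, RNA counted on CDS) against the share of input exon counts on CDS in percent (left) and against the fitted log2 TE with RNA counted on exons (right). Points are genes coloured by the call on CDS counts. Rab8b, with 13.6% of its input exon counts on CDS, falls from 2.23 to −0.31, whereas Rab30 and Rab34 stay near the line of equal values.

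Of the Rabs of the endoplasmic reticulum and Golgi, 9 of 10 tested were called higher in TE, 8 of them over 2-fold, none was called lower, and the median log2 TE was 1.28. Among all genes 36.5% were called higher and 37.3% lower. Differences between the roles described here and below were not tested. Rab1 (Rab1a in RefSeq) and Rab1b act between the endoplasmic reticulum and the Golgi, and Rab6a and Rab6b in transport at the Golgi. Rab6a had 4983 and 4205 normalised footprint counts in mice A and B against 1622 and 1433 RNA counts, a log2 TE of 1.62 and 1.55. Normalised footprints exceeded RNA in both mice, with a fitted value of 1.63 ± 0.10 (SE, edgeR adjusted p = 3.72e-10), and with RNA on exons the fitted value was 0.39 (adjusted p = 0.00119). Rab30 had 192 and 177 footprint counts against 52.6 and 43.9 RNA counts (fitted log2 TE 1.98 ± 0.17, adjusted p = 2.44e-08). It was also the highest of the 41 with RNA on exons, at 1.80 (adjusted p = 1.13e-08). Rab6b went from 1.32 on CDS to −1.03 on exons and was called in each direction. Only 11.0% of its exon counts in the RNA-Seq libraries of mice A and B lay on CDS. Rab18 (1.41), Rab2b (1.36), Rab33b (1.24), Rab2a (1.17) and Rab1 (1.09) were the other Rabs of this group over 2-fold, and Rab1b was at 0.38. Rab33a was not called on CDS (−0.05 ± 0.11, adjusted p = 0.722). On exons it was called higher (0.71, edgeR adjusted p = 4.03e-05).

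Among early endosomal Rabs, 4 of 6 tested were called higher and none lower (median 0.61), against 36.5% and 37.3% of all genes. Rab5 proteins drive fusion of early endosomes. Rab5a had 1412 and 1169 normalised footprint counts in mice A and B and 631 and 571 RNA counts, and was the highest of its 3 isoforms at 1.15 ± 0.10 (adjusted p = 3.08e-08). Rab5b was at 0.83 and Rab5c at 0.39, in the same order in both mice, and the differences between genes were not tested. On exons Rab5b fell to −0.74, whereas Rab5a stayed at 0.66 and Rab5c at 0.23. Rab21, which acts in integrin traffic, was called higher (1.17 ± 0.09, adjusted p = 8.5e-09). The close pair Rab22a and Rab31 lay at 0.09 and 0.05 and was not called on CDS. On exons both were called lower, at −0.53 and −1.75.

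Of the recycling Rabs, 4 of 7 were called higher and 1 lower (median 0.62), against 36.5% and 37.3% of all genes. Rab11a, the Rab of the recycling endosome, had 2190 and 1965 normalised footprint counts and 666 and 566 RNA counts in mice A and B. Its log2 TE was 1.72 and 1.80, with a fitted value of 1.80 ± 0.08 on CDS (adjusted p = 2.1e-11) and 1.38 on exons (adjusted p = 7.14e-10). Rab14 was at 1.83 ± 0.08 on CDS (adjusted p = 1.86e-11) and at 0.36 on exons (adjusted p = 0.000898), and Rab35 at 1.16 and 0.18. Rab15 was called lower, with 437 and 381 footprint counts against 820 and 703 RNA counts (−0.84 ± 0.09, adjusted p = 6.4e-07). On exons it was at −2.36, the lowest of the 41. Rab4a and Rab4b, of rapid recycling, were at 0.03 and 0.06 and were not called on CDS. On exons Rab4b was called higher (0.33, edgeR adjusted p = 0.00784), and Rab4a, at 0.01, was not called.

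Among Rabs of late endosomes and lysosomes, 4 of 5 tested were called higher and 1 lower (median 0.66), against 36.5% and 37.3% of all genes. Rab7, which controls traffic to the lysosome, had 2447 and 2056 normalised footprint counts and 1364 and 1276 RNA counts, a fitted log2 TE of 0.82 ± 0.08 (adjusted p = 1.9e-07). Its counts were equal in the exon and CDS tables in all 8 RNA-Seq libraries, as were those of 80 of 12213 genes, so that the exon table held no count outside its CDS. Rab9b, a close relative of Rab9 on the X chromosome, had the third highest value, with 275 and 253 footprint counts against 77.7 and 67.9 RNA counts (1.90 ± 0.16, adjusted p = 2.07e-08), but was at 0.04 on exons (adjusted p = 0.763). Rab9 was at 0.66 on CDS and 0.87 on exons. Rab24, linked to autophagy, was called lower in both counts (−0.84 and −0.42).

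The Rabs of exocytosis and polarised transport ran from the highest TE of the family to among the lowest, with 3 of 6 called higher and 1 lower. The shares over all genes were 36.5% higher and 37.3% lower. Rab8b had 266 and 288 normalised footprint counts but only 73.3 and 48.0 RNA counts on CDS, which gave log2 TE values of 1.86 and 2.58 (fitted 2.23 ± 0.19, adjusted p = 3.34e-08). With RNA on exons it was called lower, at −0.31 (adjusted p = 0.0239). Rab10, which acts in delivery to the plasma membrane, was at 1.62 on CDS and 0.17 on exons (adjusted p = 0.0507), and Rab27b, of vesicle secretion, at 1.20 and −0.91. Rab26, a Rab of secretory granules and synaptic vesicles, had 124 and 153 footprint counts against 278 and 344 RNA counts. It was called lower on CDS (−1.16 ± 0.15, adjusted p = 2.57e-06) and on exons (−0.82). Rab8a was at 0.05 and Rab13 at −0.59 ± 0.26 (adjusted p = 0.0549), and neither was called.

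The remaining tested Rabs, of cilia and other functions, held most of the lower calls, with 5 of 7 lower and 2 higher (median −0.84). The shares over all genes were 37.3% lower and 36.5% higher. Rab34, known from ciliogenesis, had 38.5 and 37.5 normalised footprint counts in mice A and B against 144 and 160 RNA counts. Its log2 TE of −1.90 and −2.09 was the lowest of the 41 in both mice (fitted −1.96 ± 0.19, adjusted p = 1.76e-07), and it was −1.69 on exons. The raw footprint counts of Rab34 were 47, 24, 29 and 27 in mice A to D, under the limit of 37 on average. It entered the TE test only through its RNA counts (195 to 305), so its rank and its call are given with that limit. Rab36 was at −1.22 ± 0.21 (adjusted p = 7.16e-05), with −0.87 and −1.64 in the 2 mice, the largest difference between mice among the 39 Rabs with at least 75 counts. Rab28 was at −1.10, Rab40b at −0.84 and Rab40c at −0.52, and all of these stayed lower on exons. Rab39b, an X-linked Rab of neurons, was called higher on CDS (1.03 ± 0.13, adjusted p = 2.68e-06) and lower on exons (−0.79, adjusted p = 2.96e-06). Rab23, a regulator of Hedgehog signalling, went likewise from 0.90 to −0.44.

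TE was also compared within pairs of paralogs. Of 16 pairs, 13 could be measured in mice A and B, 12 had the same order in both mice, and 4 differed more than 2-fold on CDS counts. The log2 TE of Rab8a minus that of Rab8b was −1.91 and −2.53 in mice A and B. Rab9 minus Rab9b was −1.13 and −1.38, Rab33a minus Rab33b −1.38 and −1.21, and Rab11a minus Rab11b 1.05 and 1.33. With RNA on exons the Rab11 pair kept its order, at 1.38 for Rab11a and −0.04 for Rab11b. The order of the other 3 pairs turned: Rab33a (0.71), Rab9 (0.87) and Rab8a (−0.22) then lay above Rab33b (−0.34), Rab9b (0.04) and Rab8b (−0.31). No test of a difference between 2 genes was made. The study's methods describe the counted reads as uniquely mapped. Reads that match both paralogs or a pseudogene equally would then be missing from the counts, and values within a pair are uncertain to that extent.

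The RiboTag comparison asked which Rab messages were more or less abundant on tagged ribosomes than in the whole tissue, and used exon counts. A bulk ratio of this kind cannot tell a larger share of expressing cells from more RNA per cell. It also sets RNA bound to tagged ribosomes against RNA of the whole homogenate, so it is no measure of expression alone. In the IP 23 of 45 Rabs (51.1%) were called higher and 6 (13.3%) lower by edgeR at an adjusted p below 0.05, against 33.7% and 35.7% of 13254 genes. Over 2-fold there were 6 higher (13.3%, all genes 11.7%) and 3 lower (6.67%, all genes 21.8%), so that the share over 2-fold higher was near that of all genes. Among the 3 lower, Rab37 entered the test only through its input counts. The fitted median log2 IP/input was 0.33 for the Rabs and −0.03 for all genes. Scaling to library totals in place of TMM moved the median of all genes to −0.31 and that of the Rabs to 0.05. The split of the 45 Rabs was then 12 higher and 14 lower. Of the 13254 genes, 3097 were then called higher and 6118 lower. The enrichments per mouse below use size factors, under which the median of all fitted genes was 0.08.

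Rab33a, a Golgi and vesicle Rab on the X chromosome, had the largest rise. Its normalised exon counts were 367 and 427 in the inputs of mice E and F and 1246 and 1562 in the IPs. The IP values lay above both inputs, with an enrichment of 1.76 and 1.87 on the log2 scale and a fitted value of 1.71 ± 0.15 (SE, edgeR adjusted p = 0.000185). Rab4b (1.27 ± 0.09, adjusted p = 9.64e-05) and Rab4a (1.09 ± 0.10, adjusted p = 0.000198) rose together. Rab4b had 949 and 945 input counts against 2469 and 2495 IP counts. Rab40b (1.23), a Rab that pairs with an E3 ubiquitin ligase through its SOCS box, Rab24 (1.05) and Rab1b (1.03) were the others over 2-fold, followed by Rab2a (0.99), Rab8a (0.95), Rab11b (0.94) and Rab12 (0.87). By role, 6 of 7 recycling Rabs and 6 of 11 Golgi Rabs were called higher, and 4 of 6 of late endosomes, 3 of 6 of early endosomes, 3 of 7 of cilia and other functions, and 1 of 8 of exocytosis, Rab8a. Called lower were 2 of exocytosis, 2 of cilia and other functions, 1 of the Golgi and 1 of early endosomes. Among all genes 33.7% were higher and 35.7% lower. The lists are small, and differences between roles were not tested. On CDS counts Rab33a, Rab4a, Rab4b, Rab24, Rab40b, Rab1b and Rab2a were called higher as well.

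Rab31, an early endosomal and Golgi Rab, had the largest fall. Its normalised exon counts were 1754 and 1616 in input and 650 and 596 in the IP, with no overlap (−1.55 ± 0.11, adjusted p = 9.58e-05). Rab34 had 386 and 410 input counts against 132 and 216 IP counts (−1.31 ± 0.24, adjusted p = 0.00306). Rab37, a Rab of secretory granules, had 64.5 and 51.4 against 28.0 and 32.3 (−1.05 ± 0.29, adjusted p = 0.017). Its raw counts were 21 and 28 in the IP, under the limit of 37, and 71 and 73 in input. Rab37 thus entered the test only through the input, and its call is given with that limit. Rab27a was at −0.77, Rab36 at −0.65 and Rab33b at −0.33. DESeq2 did not call Rab27a, Rab37 and Rab33b. Markers of other cell types moved the same way: 9 of 10 astrocyte, all 10 oligodendrocyte, 8 of 10 microglial, all 10 endothelial, 9 of 10 inhibitory and 7 of 10 oligodendrocyte precursor markers were called more than 2-fold lower in the IP, with Rab31 and Rab34 less far down than the marker medians of −2.09 to −3.66. The precursor marker Cspg5 was called higher (0.28). Their part in the falls of the Rabs was not tested.

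**Figure D3:**
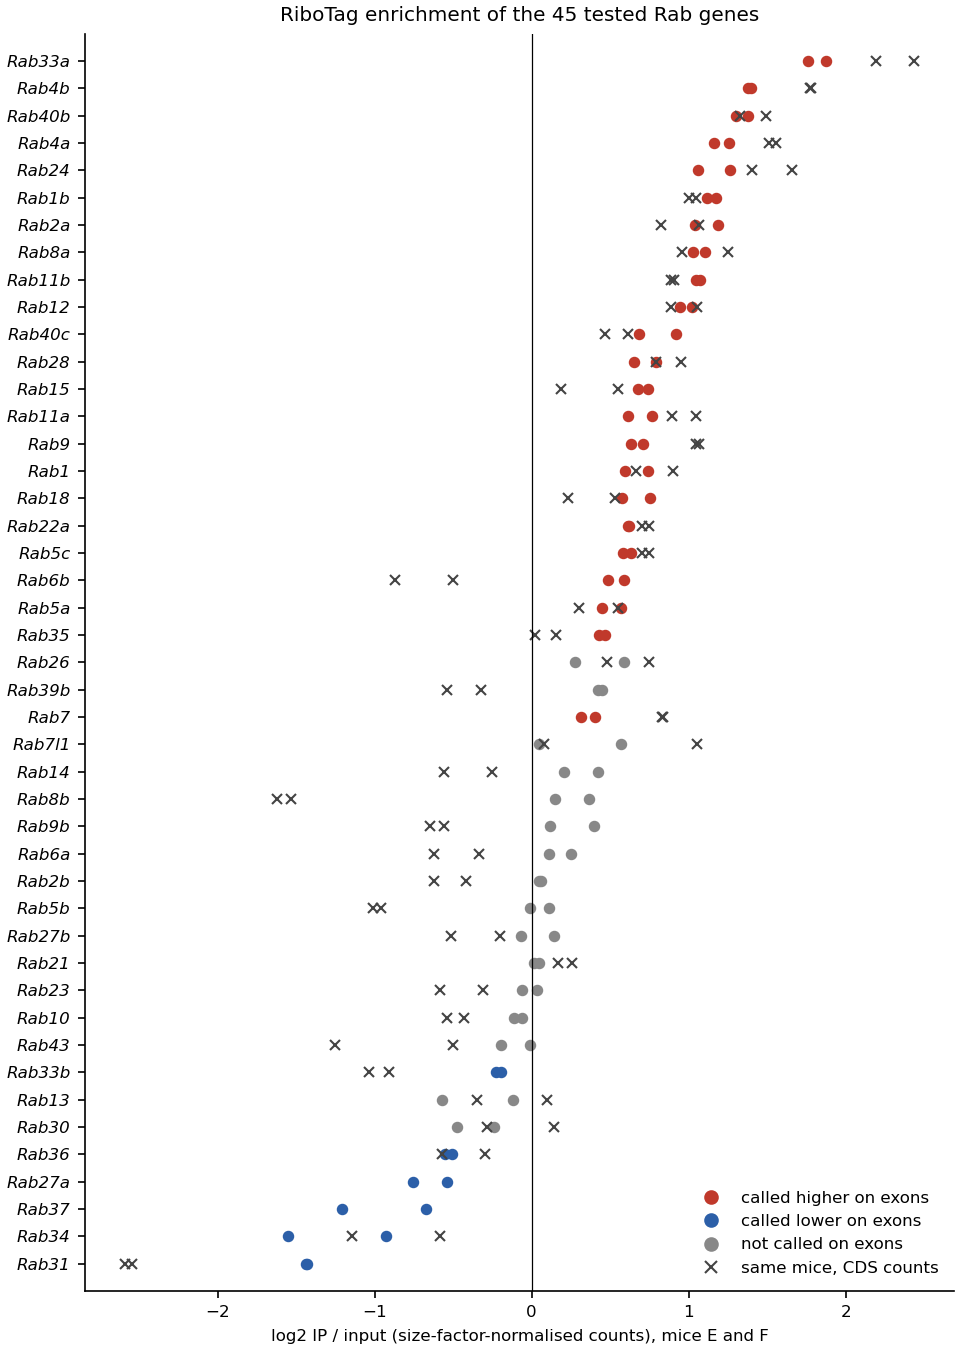
Log2 IP/input of the 45 tested Rab genes (rows, ordered by the fitted exon value) in mice E and F, as coloured points for exon counts and crosses for CDS counts of the 43 genes tested on both. Rab33a (1.76 and 1.87) and Rab31 (−1.43 and −1.44) mark the ends on exons, and the crosses of Rab6b and Rab8b lie well below their points.

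The IP of many Rabs depended on which part of the message was counted. On CDS counts 18 of 43 Rabs were called higher and 15 lower, against 36.5% and 39.0% of 12211 genes. Of the 23 called higher on exons, 17 were also called higher on CDS, 5 were not called (Rab5a, Rab15, Rab18, Rab35 and Rab40c), and Rab6b was called in opposite directions (0.42 on exons, −0.82 on CDS). With the mouse as a block on CDS counts, Rab5a (adjusted p = 0.0181), Rab15 (0.0444), Rab18 (0.0405) and Rab40c (0.00773) were called higher and Rab27b (0.0303) lower, and Rab35 was not called (0.758). A further 10 not called on exons were called lower on CDS: Rab2b, Rab5b, Rab6a, Rab8b, Rab9b, Rab10, Rab14, Rab23, Rab39b and Rab43. The raw CDS counts of Rab8b were 30 and 24 in the IP against 172 and 173 in input. Those of Rab43 were 30 and 17 against 84 and 95. Rab8b and Rab43 thus entered the CDS test only through the input, and their calls are given with that limit. Rab8b went from 0.15 on exons to −1.70 on CDS, and Rab5b from −0.06 to −1.12. In the input 14.7% and 12.6% of the exon counts of Rab8b were on CDS, and in the IP 2.91% and 2.58%. The share on CDS was lower in the IP than in the input for 39 of the 41 Rabs (95.1%), and for 85.8% of all genes. The median share fell from 38.4% to 26.3% for the Rabs and from 67.0% to 51.8% for all genes. Rab33a (95.1% in input, 96.8% in the IP) and Rab7 (100% in each) were the exceptions, and the share of Rab7 could not change because its 2 tables are equal. The part of uneven coverage, of 3′ end recovery or of isoforms in this shift was not tested. With the mouse as a block, Rab14 (0.20, adjusted p = 0.00601), Rab26 (0.32, adjusted p = 0.000679) and Rab39b (0.32, adjusted p = 0.000475) were also called higher on exons, and Rab10 (−0.20, adjusted p = 0.00608) and Rab30 (−0.47, adjusted p = 0.0162) lower.

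Paralogs also differed in the IP. Of 16 pairs, 14 could be measured, all 14 in the same order in both mice, and 3 differed more than 2-fold. Rab22a minus Rab31 was 2.05 and 2.06 on the log2 scale in mice E and F, Rab33a minus Rab33b 1.99 and 2.07, and Rab2a minus Rab2b 1.12 and 0.99. On CDS counts these differences were larger, at 3.30 and 3.29, 3.23 and 3.35, and 1.69 and 1.24. The raw CDS counts in the IP were only 31 and 28 for Rab31 and 33 and 40 for Rab33b. Rab6a minus Rab6b changed sign, from −0.33 and −0.37 on exons to 0.16 and 0.25 on CDS. Over the 39 Rabs with at least 75 counts, TE in mice A and B and IP in mice E and F were negatively correlated (rho = −0.48 on exons and −0.54 on CDS, against −0.03 and −0.18 over all genes). The mice differ, but genes are not independent replicates and each gene has its own share on CDS in both measures. Of the 8 Rabs called lower in TE, Rab15, Rab24, Rab28, Rab40b and Rab40c were called higher in the IP, and Rab34 and Rab36 lower. Of the 26 called higher in TE, 13 were called higher in the IP, 1 lower (Rab33b) and 12 not at all. Over all 45 Rabs tested in the IP 51.1% were called higher and 13.3% lower, so the higher calls in both sets lay near the share of the family. Joint calls over all genes are not given, and the joint counts were not tested.

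After 1 h of AZD-8055 the question was whether the drug changed Rab translation. No Rab was called in TE (0 of 41), RNA (0 of 42) or footprints (0 of 39) by edgeR, and none by DESeq2. Calls were rare among all genes as well, with 0.0763% higher and 0.788% lower in TE, 0.0575% and 0.0903% in RNA, and 0.0468% and 0.982% in footprints. At an unadjusted p below 0.05 there were 2 Rabs in each comparison, which was 4.88% in TE, 4.76% in RNA and 5.13% in footprints, against 6.75%, 8.24% and 12.8% of all genes. In TE these were Rab35 (−0.36 ± 0.13, edgeR adjusted p = 0.512) and Rab10 (−0.27 ± 0.11, adjusted p = 0.659). In RNA they were Rab34 (0.29) and Rab26 (0.27), and in footprints Rab9 (−0.33 ± 0.11, edgeR adjusted p = 0.279) and Rab10 (−0.20). The log2 TE of Rab35 was 1.19 and 1.03 in mice A and B and 0.69 and 0.81 in mice C and D. That of Rab10 was 1.71 and 1.44 against 1.31 and 1.32. Both were picked by their unadjusted p in these same libraries, so the values by mouse add no support for a change.

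The intervals bound what these libraries could show. The 95% interval of the TE change lay within 2-fold in either direction for 40 of 41 Rabs, all but Rab13 (−1.54 to 0.28), and within 1.5-fold for 27. For RNA it lay within 1.5-fold for 40 of 42, and for footprints for 34 of 39. The TE change was negative for 28 of the 41, with a median of −0.10 against −0.01 for all genes. Without mouse D the median was −0.01 with 22 negative, and without mouse C it was −0.17. The vehicle libraries are the same as those of the TE comparison above.

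**Figure D4:**
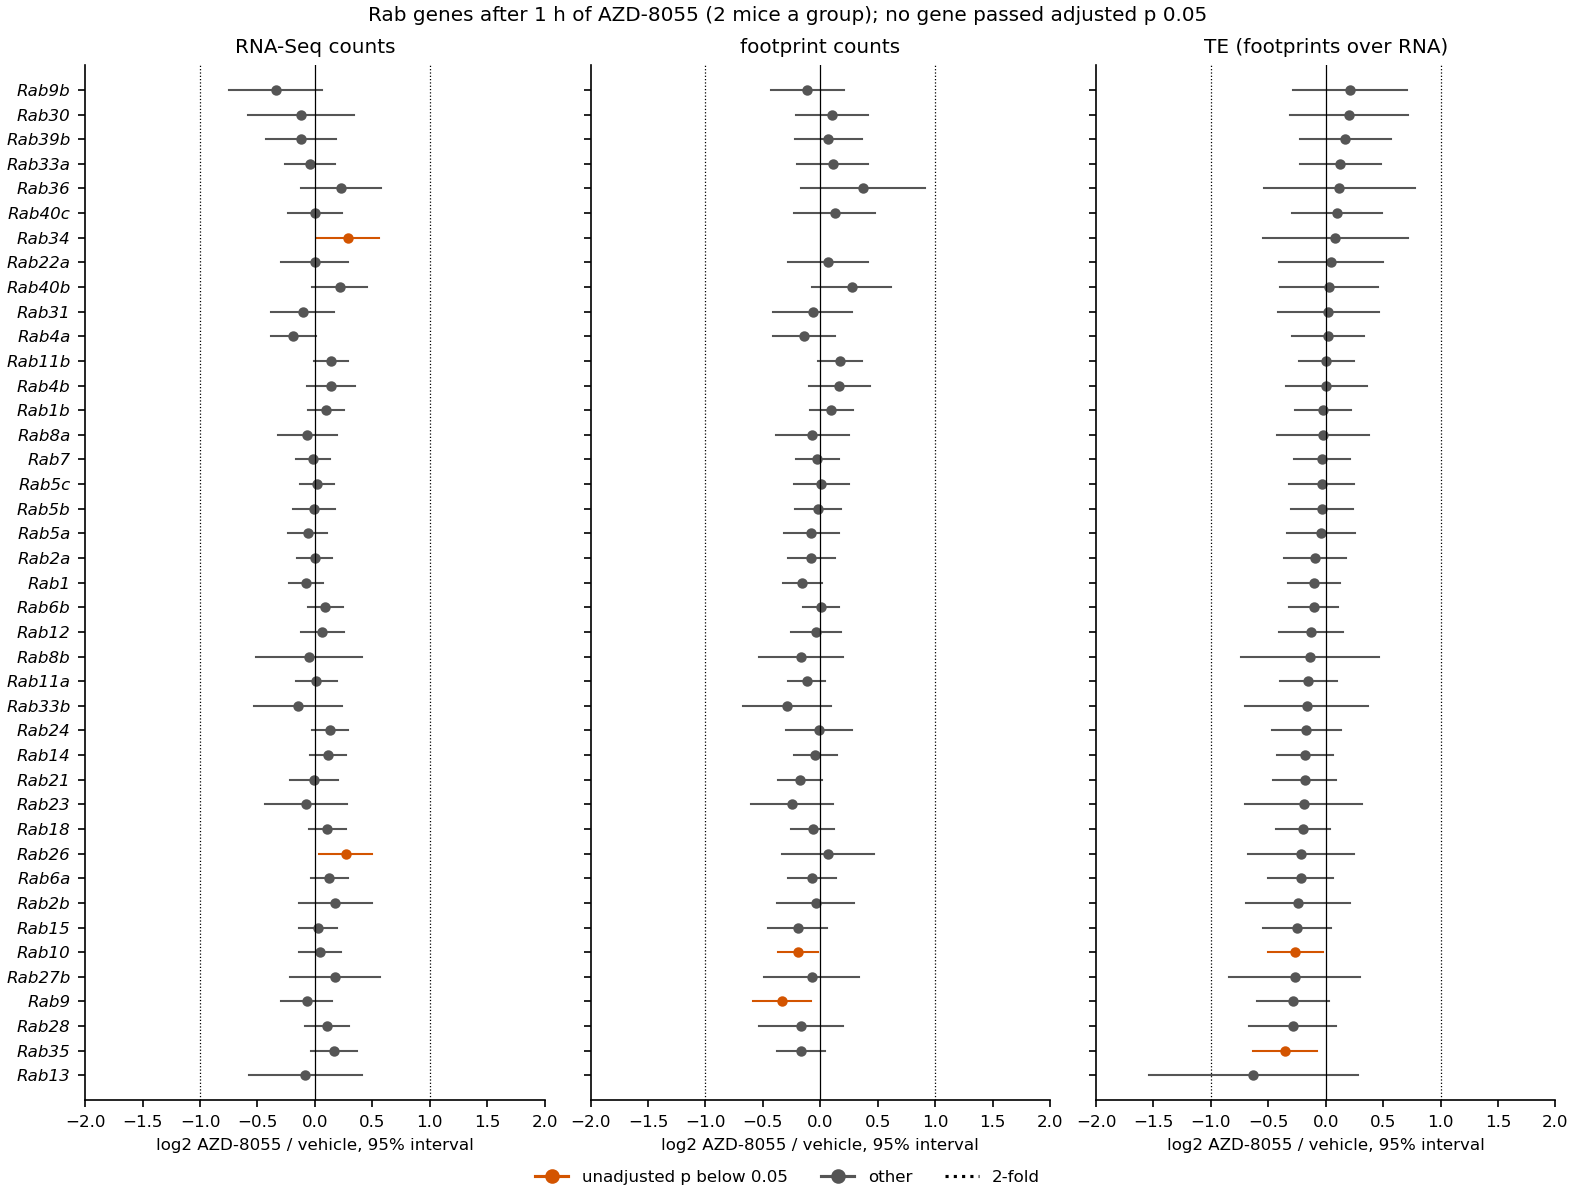
Fitted log2 change after AZD-8055 with its 95% interval in RNA-Seq counts (left), footprint counts (middle) and TE (right) for the 41 Rabs tested in TE, ordered by the TE change, with dotted lines at 2-fold. Points in orange have an unadjusted p below 0.05 (Rab34 and Rab26 in RNA, Rab9 and Rab10 in footprints, Rab35 and Rab10 in TE), Rab13 has the widest TE interval, and Rab34 and Rab13 had too few counts for a footprint test.

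Messages that begin with a C and a run of pyrimidines (terminal oligopyrimidine, or TOP, messages) are known to depend on mTOR, so the annotated starts of the Rabs were read from RefSeq (GRCm38.p6). The motif was a C at the transcript start that RefSeq's promoter window gives (any window, where a gene had several), followed by at least 4 further C or T on the gene's strand, and only that position was searched. Of the 54 Rabs 44 had an entry, and 3 (6.82%) held the motif, Rab9, Rab33a and Rab33b. Of the 41 Rabs tested for a TE change 34 had an entry, and the same 3 (8.82%) held the motif. These shares were not tested. Among all genes tested for a TE change that had an entry 264 of 8856 (2.98%) held it, and among those called lower after AZD-8055 13 of 69 (18.8%). The 3 starts are shown because they are the Rab starts with the motif, beside those of Rab10 and Rab35, which had the lowest unadjusted p in TE. Each runs from 10 bases before the annotated start to 20 from it on, with the pyrimidine run in capitals.
Rab9 (chrX:166479848-166479877, minus strand): cgacctacagCTCCTggcctggtgctaccg
Rab33a (chrX:48519275-48519304, plus strand): cagaaggagaCCTCTCaaggctggcccagt
Rab33b (chr3:51483956-51483985, plus strand): tctctccccgCCCCCgggggctgcgcagct
Rab10 (chr12:3309950-3309979, minus strand): gcgggtgtacgtccttgcgtgcgtctcagg
Rab35 (chr5:115631977-115632006, plus strand): cggagggaggtgtttctgtcagttccggct

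The 3 with the motif did not move alike. The TE change was −0.29 for Rab9, −0.17 for Rab33b and 0.13 for Rab33a, with 95% intervals of −0.60 to 0.03, −0.70 to 0.37 and −0.23 to 0.48 that overlap each other. For Rab33a and Rab35 the start in the window lies inside the gene's full RefSeq extent, whose first base is further upstream. The annotated start need not be the one used in these brains, and the match is a description of the annotation.

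The genes that act on or with Rabs were described from 4 lists. Of the 7 genes of Rab prenylation and delivery, 5 were called higher in TE and none lower, with a median of 0.83, against 0.82 for the Rabs on CDS. With RNA on exons the median of the Rabs was −0.21. Medians of the lists on exons are not given, so the contrasts between lists and Rabs hold for CDS counts only. Chm (Rep1, the escort protein that presents Rabs to the prenyltransferase) was the highest at 1.68 ± 0.10 (adjusted p = 5.28e-10). Gdi2, a GDP dissociation inhibitor, was at 0.83. Of 34 GEFs 6 were called higher and 21 lower (median −0.62), from Dennd5b at 2.10 to Hps1 at −2.59, against 36.5% higher and 37.3% lower among all genes. Of 34 GAPs 8 were called higher and 18 lower (median −0.37), from Rabgap1l at 1.74 to Tbc1d9b at −2.26. Of 46 effectors 13 were higher and 19 lower (median −0.11), from Bicd1 at 1.82 to Fyco1 at −1.59. Rabgap1l fell to 0.11 on exons and was no longer called.

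**Figure D5:**
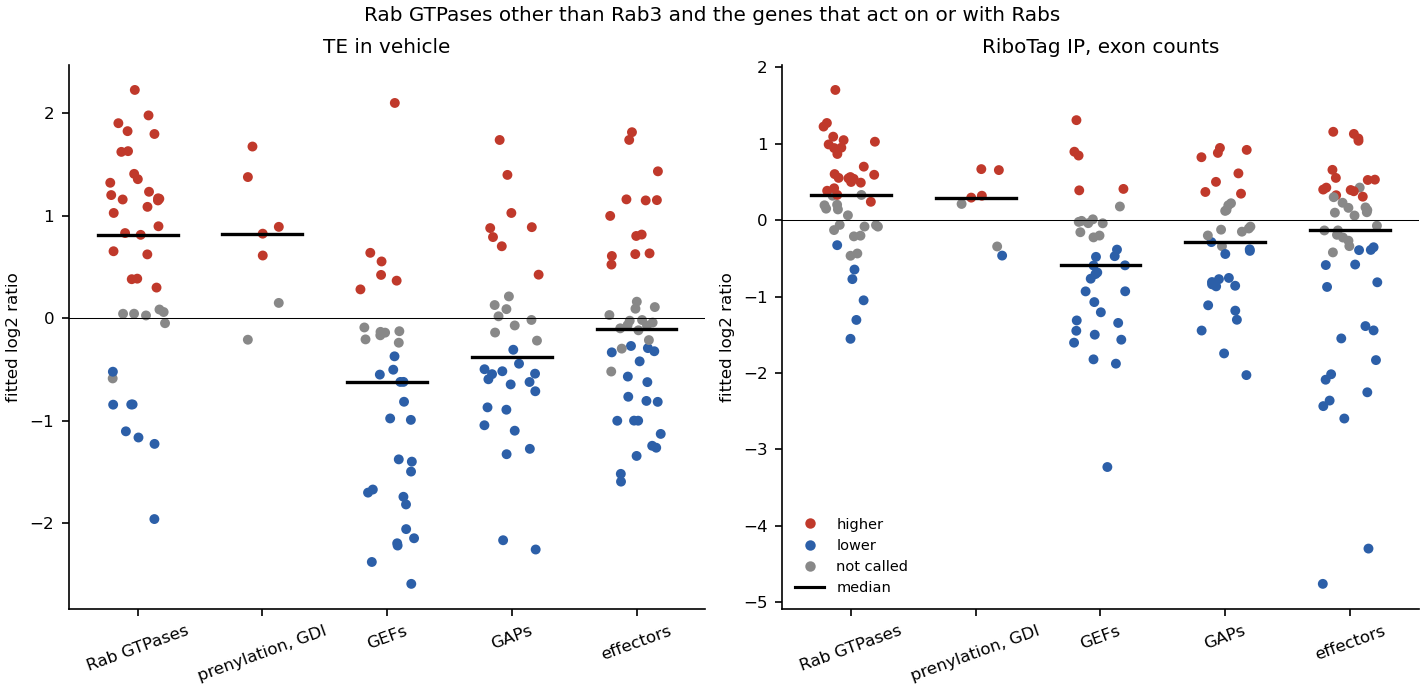
Fitted log2 TE in vehicle (left) and log2 IP/input on exons (right) for the tested Rabs and for 4 lists of genes that act on or with Rabs. Each point is a gene coloured by its call, and bars are medians. With RNA counted on CDS, the median TE of the GEFs (−0.62) lies below that of the Rabs (0.82).

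In the IP, prenylation and delivery had 4 of 7 genes higher and 1 lower (median 0.30), led by Rabggtb, the β subunit of the prenyltransferase, at 0.67, with Chm lowest at −0.46. Among all genes 33.7% were higher and 35.7% lower. GEFs had 5 of 35 higher and 21 lower (median −0.59), from Rab3ip at 1.31 to Als2cl at −3.23. GAPs had 8 of 35 higher and 17 lower (median −0.29), from Tbc1d10a at 0.95 to Usp6nl at −2.03, and effectors 14 of 50 higher and 19 lower (median −0.13), from Rilpl1 at 1.16 to Sytl5 at −4.76. After AZD-8055 none of the 121 regulators and effectors tested was called in TE and none of 122 in RNA. Of 117 tested in footprints only Rabggtb was called lower (−0.64 ± 0.13, edgeR adjusted p = 0.0474), and it was not called by DESeq2 (adjusted p = 0.0833), with size factors in edgeR (0.0503), without mouse A (0.568) or without mouse B (0.213).

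Rab2b, Rab5a, Rab5b, Rab6a and Rab37 overlap another protein-coding gene in RefSeq (Tox4, Pp2d1, Pmel, Mrpl48 and Cd300lf). The labels name the kit as TruSeq V2 and do not say whether the counting used the strand. Without strand, RNA-Seq reads from an overlapping stretch cannot be told apart, and the values of these 5 Rabs are uncertain to that extent.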

How the data were processed

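The deposited values are whole-number read counts per gene, made by the authors without normalization, in a CDS table of 12 libraries and an exon table of the 8 RNA-Seq ones. The submitters' processing notes name mm10, Bowtie2, TopHat2 and HTSeq, without versions. For footprints the study's methods describe trimming, removal of rRNA reads and counting with HTSeq. For RNA-Seq they refer to earlier work.

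Tests used edgeR 4.0.16 in R 4.3.3 (TMM, quasi-likelihood F-test, Benjamini-Hochberg adjustment over all genes tested, threshold 0.05, mean of at least 37 counts), fitted on whole tables. TE was fitted on 8 CDS libraries in 4 groups, the TE change as their interaction, and the IP on 4 exon libraries. Standard errors and 95% intervals follow from the F statistic and its degrees of freedom. Normalised counts were divided by DESeq2 1.42.0 size factors. A log2 TE for a mouse is their ratio. Summaries and plots used Python 3.11.15, pandas 2.3.3 and matplotlib 3.10.9. The main edgeR fit of each comparison was tested on simulated counts.

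The mouse letter pairs libraries of 1 animal. The difference between mice correlated across genes at 0.244 (A and B), 0.198 (C and D) and 0.548 (E and F). RiboDiff, the study's tool for TE, was not used here.

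The Rabs, role lists and pathway lists were chosen with earlier results of these data known. Named are every Rab called over 2-fold, further called Rabs, both members of the 16 paralog pairs, Rabs under the count limit and, of the pathway lists, the called genes with the largest rise and fall. Gdi2, Rab12 and the Rabs under AZD-8055 were named after their values were seen. RefSeq matched 52 Rabs by symbol and 2 by synonym (Rab1a for Rab1, Rab29 for Rab7l1). Another 27 symbols read like dates and were left unchanged. Alternatives were DESeq2, other scalings and count limits, a fold over 2, the other table, the mouse as a block and leaving out each mouse.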

Additional observations from a re-analysis of the deposited data

How the results depend on the processing

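With RNA counted on exons, TE calls went to 15 higher and 21 lower of 44 Rabs (34.1% and 47.7%, all genes 36.1% and 38.2%). These log2 values changed sign: Rab1b −0.21, Rab5b −0.74, Rab6b −1.03, Rab8b −0.31, Rab11b −0.036, Rab12 −0.37, Rab22a −0.53, Rab23 −0.44, Rab27b −0.91, Rab31 −1.75, Rab33a 0.71, Rab33b −0.34 and Rab39b −0.79. The ratio's construction lowers genes with many exon counts outside CDS. Under DESeq2, the other scalings and count limits, and the mouse as a block, TE gave 25 to 27 higher and 8 to 10 lower. The Rabs tested in these settings were 40 to 54, and 3614 to 5685 of all genes were called higher and 3791 to 5191 lower. Without mouse A or B the fitted median log2 TE of the Rabs was 0.76 or 0.83. Requiring 2-fold left 4 lower (9.76%, all genes 17.6%). The median log2 TE was 0.78 with size factors, 0.68 with library totals, and 0.81 to 0.83 with 1 vehicle mouse.

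In the IP, CDS counts gave 15 of 43 Rabs lower, and CDS counts with the mouse as a replicate block 16 of 43. Of 12211 genes 4766 and 5176 were then lower. DESeq2 gave 3 of 45 Rabs lower, and 4358 of 13254 genes. Library totals gave 12 higher and 14 lower of 45 Rabs, and 3097 higher and 6118 lower of 13254 genes. A 2-fold limit gave 6 Rabs higher (13.3%, all genes 11.7%) and 3 lower (6.67%, all genes 21.8%). On CDS, with the blocked value second, Rab6a was at −0.62 and −0.61, Rab6b −0.82 and −0.82, Rab8b −1.70 and −1.70, Rab9b −0.73 and −0.73, Rab14 −0.54 and −0.54, Rab35 −0.042 and −0.042, and Rab39b −0.57 and −0.57. With library totals Rab7 was at −0.037. The median log2 enrichment was 0.44 with size factors, 0.38 on CDS and 0.044 with library totals. The cause of these differences was not tested. Leaving out mouse E or F leaves no residual degrees of freedom, so only the median is given, 0.43 to 0.45. With the mouse as a block the IP gave 26 higher and 8 lower of 45 Rabs (all genes 5224 and 5502). TE gave 26 and 8 of 41 (all genes 4451 and 4523), and the TE change 0 and 0 (all genes 31 and 116). Apart from the 5 Rabs named with the IP on exons, and the 5 on CDS, the block changed no other call of a Rab.

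No alternative called a Rab after AZD-8055. The lowest adjusted p was 0.0634, in footprints without mouse C, where 355 genes were called higher and 482 lower. Without mouse D these were 77 and 188. With 2 mice a group, small changes could not be detected, and Rabs with few counts had the widest intervals.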
